A study of Mus musculus with 6 samples.

Results

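The interleukin 1 family ligands and receptors described here are 10 of the 27179 genes listed in the deposited expression table. They were found by Entrez number for the symbols Il1a, Il1b, Il1rn, Il1r1, Il1r2, Il1rap, Il1rl1, Il18, Il18rap and Il18bp, and all 10 were listed. Gene positions below are those of RefSeq for GRCm38.p6. Of these, 7 take part in signalling and 3, Il1rn, Il1r2 and Il18bp, encode antagonists or decoys, called decoy members below. The members were chosen by their values in the same comparison that is described here, that of the Asic3-null label with the WT label. Their differences are therefore given as a description, with no p-value, and whether a member passed a threshold is support for nothing.

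Total RNA was sequenced from leukemia-initiating cells (LICs) of mouse bone marrow, in 6 libraries. Of these, 3 carry the label Asic3-null (Asic3-/-) and are called null-labelled, and 3 carry the label WT and are called WT-labelled or WT libraries. Asic3 encodes a proton-gated cation channel. All mice were of the C57BL/6 strain and were given as 8 weeks old. In the study's leukemia model, Lin- fetal liver cells from Asic3-/- or Asic3+/+ mice received a retrovirus carrying MLL-AF9, a fusion oncogene of acute myeloid leukemia, with YFP as its marker, and were transplanted into lethally irradiated mice. Both groups thus carry MLL-AF9, and the label that separates them is Asic3. The LICs were sorted as YFP+Mac-1+c-Kit+ cells, so that host cells without YFP lay outside the gate. Which mouse or pool gave each library is not stated, so that the spread between libraries may be partly technical.

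Interleukin 1 alpha and beta are inflammatory cytokines that bind the receptor IL-1R1, which recruits the accessory protein IL-1RAcP and signals through MyD88 and IRAK kinases to NF-kB. The family holds its own brakes: the receptor antagonist encoded by Il1rn occupies IL-1R1 without starting a signal, the decoy receptor IL-1R2 binds the ligand but has no signalling domain, and the IL-18 binding protein captures IL-18 in solution. In bone marrow, interleukin 1 is known to push hematopoietic stem cells towards myeloid output, and IL-1R2 is known as an abundant surface protein of neutrophils.

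The 6 libraries were shallow. The library size, inferred from the RPKM values (reads relative to gene length and sequencing depth), lay between 1947168 and 2381861 reads, and a gene of 2 kb with 1 read stood at 0.21 to 0.257 RPKM. The targeted gene went against the labels. Asic3 stood at 9.12, 4.11 and 6.58 RPKM in the null-labelled libraries and at 1.22, 1.85 and 0.435 RPKM in the WT-labelled ones (log2 difference 1.81, standard error 0.35, adjusted p = 0.0260 from limma). This call needed Asic3-null replicates 1 and 3 and WT replicates 1 and 3, each of which ended it when left out. The values are per gene and not per exon, and transcription of the deleted part of the allele was not tested. Cdk5, which overlaps the locus, averaged 22.2 RPKM in the null-labelled libraries and 20.3 RPKM in the WT-labelled ones. Its log2 difference was 0.14 (adjusted p = 0.743 from limma), and its part in the Asic3 values was not tested. The groups also differed in sex-linked genes: Xist lay between 46.5 and 71.9 RPKM in the null-labelled libraries and between 0.0236 and 0.0573 in the WT-labelled ones, and the summed RPKM of 4 Y-linked genes was 0 in the former and 81.4 to 118.2 in the latter. Genotype label and sex cannot be told apart here, and the groups are named by their labels throughout. Every direction below holds for the labels as given and would turn if they were exchanged, which was not tested. Of the sorting markers, Itgam, which encodes the Mac-1 alpha chain, had 12.9, 12.3 and 16.9 RPKM against 89.5, 85.7 and 55.1 RPKM (log2 difference -2.35, adjusted p = 0.00072 from limma), and Kit had 14.4, 17.9 and 20.4 against 9.09, 15.3 and 8.97 RPKM (log2 difference 0.64, adjusted p = 0.219 from limma). Both sorting markers were present in every library.

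The promoter windows of 4 members are printed. These are the main ligand, both receptors of interleukin 1 and the member with the most reads over the 6 libraries together. Shown are thus the windows of the ligand Il1b, the signalling receptor Il1r1, the decoy receptor Il1r2 and the IL-18 coreceptor Il18rap. Each is the RefSeq window of GRCm38.p6 from 250 bases before to 50 bases after a transcript start, 5′ to 3′ on the gene's strand, and for Il1r1 it is the first of 2 windows. The windows were searched on both strands for GAGGAA, a PU.1 core, for TTGCNNAA, a C/EBP motif, for GGGANNTTC, an NF-kB motif, and for TATAAA, the TATA box. Capitals mark the matches.
Il1b, chr2:129371090-129371389, minus strand: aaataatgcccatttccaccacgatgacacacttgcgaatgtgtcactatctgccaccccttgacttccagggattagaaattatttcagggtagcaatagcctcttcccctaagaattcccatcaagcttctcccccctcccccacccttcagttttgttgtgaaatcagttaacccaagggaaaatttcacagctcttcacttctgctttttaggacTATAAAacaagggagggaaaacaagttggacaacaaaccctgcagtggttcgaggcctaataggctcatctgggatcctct
Il1r1, chr1:40224830-40225129, plus strand: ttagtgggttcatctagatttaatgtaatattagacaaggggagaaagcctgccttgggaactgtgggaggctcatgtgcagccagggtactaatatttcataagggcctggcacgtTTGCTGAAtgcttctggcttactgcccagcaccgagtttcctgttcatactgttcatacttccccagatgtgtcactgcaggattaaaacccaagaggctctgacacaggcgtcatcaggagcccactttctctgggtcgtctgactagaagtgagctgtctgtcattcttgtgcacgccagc
Il1r2, chr1:40085843-40086142, plus strand: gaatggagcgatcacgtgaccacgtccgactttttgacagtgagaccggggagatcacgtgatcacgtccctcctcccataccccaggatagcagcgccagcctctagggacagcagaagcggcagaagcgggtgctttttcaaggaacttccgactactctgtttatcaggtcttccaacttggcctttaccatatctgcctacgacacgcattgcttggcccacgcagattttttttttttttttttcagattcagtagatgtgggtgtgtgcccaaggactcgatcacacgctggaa
Il18rap, chr1:40515112-40515411, plus strand: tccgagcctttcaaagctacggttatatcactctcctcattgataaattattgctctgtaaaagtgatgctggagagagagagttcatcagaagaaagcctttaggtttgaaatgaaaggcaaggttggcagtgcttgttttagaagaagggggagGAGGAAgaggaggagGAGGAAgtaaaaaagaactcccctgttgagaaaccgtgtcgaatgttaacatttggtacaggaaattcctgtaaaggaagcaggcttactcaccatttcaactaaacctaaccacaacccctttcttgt
In these windows Il1b held 1 TATAAA at position -31 from the start, Il1r1 held 1 TTGCNNAA at -133, and Il18rap held GAGGAA at -94 and -79. The Il1r2 window held none of the 4 motifs, which says only that these letters are not in this window. The 10 members matched 14 windows, some genes having more than 1 start. GAGGAA was in 3 of the 14, against 28.3% of all 32851 RefSeq windows, TTGCNNAA in 3 against 10.8%, TATAAA in 4 against 13.6%, and GGGANNTTC in none against 3.9%. A match describes the sequence only.

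The receptor members share a locus, except for Il1rap. Il1r2, Il1r1, Il1rl1 and Il18rap lie with Il1rl2 and Il18r1 in a cluster of 6 protein-coding genes that spans 467 kb of chromosome 1. Reads were very unequal along it, with totals over the 6 libraries of 279 for Il1r2, 194 for Il1r1, 19 for Il1rl2, 2 for Il1rl1, 1 for Il18r1 and 349 for Il18rap. The receptor genes at both ends of the cluster were thus read and those in its middle hardly at all.

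**Figure D1:**
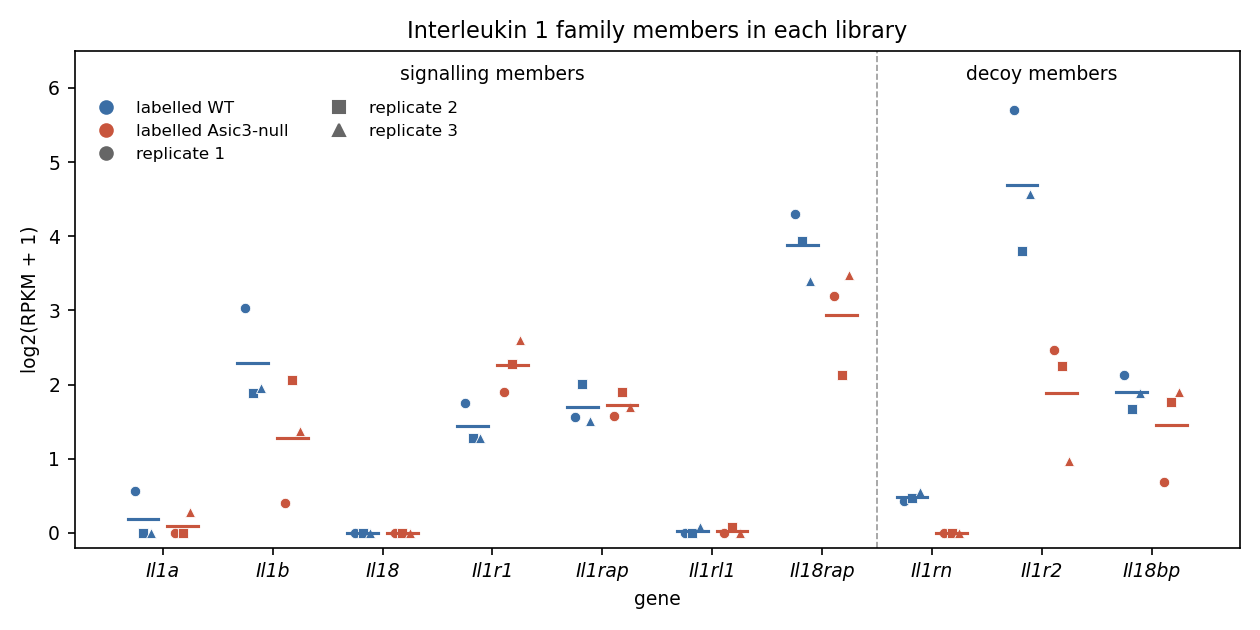
Level of the 10 members in each library, as log2(RPKM + 1) on the vertical axis, signalling members on the left and decoy members on the right. Points are single libraries (3 labelled WT in blue, 3 labelled Asic3-null in red, replicate number by shape) and bars are group means; Il1r2 lies at 13.0 to 51.0 RPKM under the WT label and at 0.951 to 4.50 RPKM under the null label, and Il1r1 is the one above the WT libraries in all 3 null-labelled libraries.

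Among the ligands, Il1b was read at a low level and Il1a and Il18 hardly or not at all. Il1b (Entrez 16176, chr2:129364569-129371164), the inflammatory ligand that needs cleavage for its activity, had 0.325, 3.16 and 1.60 RPKM in the null-labelled libraries and 7.16, 2.71 and 2.86 RPKM in the WT-labelled ones. WT replicate 1 was highest and Asic3-null replicate 1 lowest, and the groups overlapped. Averaged by label, the levels came to 1.70 ± 1.42 and 4.24 ± 2.53 RPKM (SD, n = 3 each), a log2 difference, labelled Asic3-null minus WT on log2(RPKM + 1), of -1.01 (standard error 0.46). These values rest on 16 inferred reads against 36, so that 69.2% of the 52 reads were in the WT libraries (exact binomial 95% interval 54.9 to 81.3%). As a reference, the WT libraries held 47.7% of all reads, and intervals of this kind cover counting error only. They leave out the spread between libraries, so they are no test of a difference between the groups. In bulk RNA, fewer cells of a type and less RNA per cell cannot be told apart, here and for every member below. The log2 difference of Il1b ranged from -1.56 with a pseudocount of 0.1 to -0.57 without Asic3-null replicate 1, and the ratio of the WT mean to the null-labelled mean ranged from 1.64 without WT replicate 1 to 4.40 without Asic3-null replicate 2. The reads of the antisense gene Il1bos, which overlaps Il1b, cannot be separated from it by strand in this library type, and Il1bos had 2 reads in all.

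Il1a (Entrez 16175, chr2:129299609-129310186), the ligand that is active as a precursor and acts as an alarm signal of damaged cells, had 0, 0 and 0.216 RPKM in the null-labelled libraries and 0.482, 0 and 0 RPKM in the WT-labelled ones. That is 1 read against 2, and no difference between the groups could be detected at this depth. Gm14023, which overlaps Il1a, had 4 reads in all, and its reads cannot be separated from those of Il1a by strand. Il18 (Entrez 16173, chr9:50554700-50581841), the interferon-gamma-inducing ligand, was listed at 0 in all 6 libraries. A count of 0 over these libraries allows a rate of up to 0.223 RPM (reads scaled to library size alone). Of the 3 ligands, then, only Il1b gave more than a few reads in these cells.

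The signalling receptor of interleukin 1 had its higher values in the null-labelled libraries. Il1r1 (Entrez 16177, chr1:40222480-40316201) had 2.74, 3.84 and 5.07 RPKM in the null-labelled libraries and 2.36, 1.43 and 1.43 RPKM in the WT-labelled ones. Each null-labelled library lay above each WT library, though Asic3-null replicate 1 and WT replicate 1 were close. The averages stood at 3.89 ± 1.17 and 1.74 ± 0.54 RPKM (SD, n = 3 each), a log2 difference of 0.82 (standard error 0.28). Inferred reads were 32, 46 and 60 against 25, 14 and 17, so that 28.9% of the 194 reads were in the WT libraries (exact binomial 95% interval 22.6 to 35.8%). The log2 difference was above 0 in 14 of 14 alternatives, from 0.65 without Asic3-null replicate 3 to 1.14 with limma-voom on inferred reads.

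The accessory chain differed by less than the spread between libraries. Il1rap (Entrez 16180, chr16:26581509-26730128), whose product joins IL-1R1, ST2 and the IL-36 receptor on ligand binding, had 1.98, 2.72 and 2.26 RPKM in the null-labelled libraries and 1.96, 3.03 and 1.84 RPKM in the WT-labelled ones. The groups overlapped over almost their whole range. Group means came to 2.32 ± 0.37 and 2.28 ± 0.65 RPKM, a log2 difference of 0.03 (standard error 0.26), which changed sign in 3 of 14 alternatives and lay between -0.06 and 0.19. Of the 261 reads of Il1rap, 46.7% were in the WT libraries (exact binomial 95% interval 40.6 to 53.0%). This interval includes the reference of 47.7%. Gm20319, which overlaps Il1rap, had 27 reads in all beside the 261 of Il1rap. Il1rl1 (Entrez 17082, chr1:40404864-40465418), which encodes ST2, the receptor of IL-33, had 0, 0.06 and 0 RPKM against 0, 0 and 0.061 RPKM, 1 read in each group. At 2 reads in all, no difference could be detected at this depth.

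Il18rap (Entrez 16174, chr1:40515362-40551707), the accessory chain of the IL-18 receptor, was the highest of the signalling members. It had 8.16, 3.38 and 10.1 RPKM in the null-labelled libraries and 18.7, 14.2 and 9.51 RPKM in the WT-labelled ones. Asic3-null replicate 3 lay above WT replicate 3, so the groups overlapped by this pair. Averaged by label, the levels came to 7.21 ± 3.46 and 14.2 ± 4.62 RPKM, a log2 difference of -0.94 (standard error 0.36), and 63.9% of its 349 reads were in the WT libraries (exact binomial 95% interval 58.6 to 68.9%). Without Asic3-null replicate 2 the log2 difference was -0.54, and without replicate 3 of that label it was -1.21. The ligand-binding chain of the same receptor, Il18r1, had 1 read in all 6 libraries, and its ligand Il18 had none, so Il18rap was read almost without its partners.

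The decoy receptor Il1r2 had the largest difference on log2(RPKM + 1) of the 6 members with a mean of at least 1 RPKM. Il1r2 (Entrez 16178, chr1:40084692-40125230) had 4.50, 3.75 and 0.951 RPKM in the null-labelled libraries and 51.0, 13.0 and 22.6 RPKM in the WT-labelled ones. All 3 WT libraries were above all 3 null-labelled ones, with WT replicate 1 far above the other WT libraries and Asic3-null replicate 3 lowest. The averages stood at 3.07 ± 1.87 and 28.9 ± 19.8 RPKM (SD, n = 3 each), 9.41-fold apart, or 5.81-fold without WT replicate 1, and the log2 difference was -2.80 (standard error 0.51). Inferred reads were 14, 12 and 3 against 144, 34 and 72, so that 89.6% of the 279 reads were in the WT libraries (exact binomial 95% interval 85.4 to 92.9%). The log2 difference ranged from -3.24 without WT replicate 2 to -2.30 without WT replicate 1. An overlapping noncoding gene, Gm16894, had 8 reads in all.

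In the limma fit across all genes, 1 of the 6 members that passed the filter of a mean of at least 1 RPKM, Il1r2, was among the genes called at an adjusted p under 0.05. It was called in 9 of 15 alternatives and not in the others, which were those on untransformed RPKM, when low genes were not filtered, and when WT replicate 1, WT replicate 3, Asic3-null replicate 2 or Asic3-null replicate 3 was left out. Among all 12037 tested genes 3.35% were called, 340 lower and 63 higher in the null-labelled libraries. The groups did not overlap for 2 of the 6, Il1r1 and Il1r2, against 22.6% of all tested genes. Since the members were selected on this comparison, nothing is read from these counts. Il1a, Il1rn, Il1rl1 and Il18 did not pass the filter.

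Neutrophil markers differed between the labels in the same direction as Il1r2. The summed RPKM of 10 neutrophil genes, among them S100a8, Ltf and Camp, was 237, 374 and 256 in the null-labelled libraries and 4135, 4333 and 3891 in the WT-labelled ones. All 9 of them that could be tested were called lower under the null label (median log2 difference -3.48), and none of the 10 was at 0 in every library. The summed RPKM of 8 monocyte and macrophage genes was 1044 to 1196 against 1456 to 1549, with 4 of 7 tested genes called lower. The part of either group of genes in the values of Il1r2, Il1b, Il18rap or Il1r1 was not tested. The lymphoid cells in which Il18rap is best known gave almost no reads of their markers: natural killer cell genes summed to at most 0.602 RPKM and T cell genes to at most 0.502 RPKM in any library, and Ncr1, Klrb1c, Gzma, Cd3e, Cd8a and Cd4 were at 0 throughout. Of the 7 mast cell and basophil genes, Fcer1a, Prss34, Cma1 and Tpsb2 were at 0 throughout, while the list summed to 115 to 127 RPKM against 57.4 to 128 RPKM.

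The soluble decoys were low. Il1rn (Entrez 16181, chr2:24336860-24351491), the receptor antagonist, was at 0 in all 3 null-labelled libraries and had 0.353, 0.382 and 0.471 RPKM in the WT-labelled ones. Every WT library was thus above every null-labelled library, but on 7 reads in all (2, 2 and 3). The WT mean was 0.402 ± 0.061 RPKM (SD, n = 3), and the 3 reads that a count of 0 allows over the null-labelled libraries set an upper limit of 0.158 RPKM there. With the reads of each label pooled and the 7 WT reads taken as exact, this limit lay 2.56-fold below the WT level. Counting error on the 7 reads allows a smaller difference. Of these reads, 100% were in the WT libraries, with an exact binomial 95% interval of 59.0 to 100%. Il18bp (Entrez 16068, chr7:102015074-102018232), the IL-18 binding protein, had 0.616, 2.40 and 2.73 RPKM in the null-labelled libraries and 3.39, 2.20 and 2.71 RPKM in the WT-labelled ones. Of the 44 reads of Il18bp, 56.8% were in the WT libraries (exact binomial 95% interval 41.0 to 71.7%). This interval includes the reference of 47.7%. The groups overlapped, and Asic3-null replicate 1, with 2 reads, was the one that lay apart. Group means came to 1.92 ± 1.14 and 2.77 ± 0.60 RPKM, a log2 difference of -0.45 (standard error 0.35), which was -0.07 without that library and -0.72 with a pseudocount of 0.1.

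**Figure D2:**
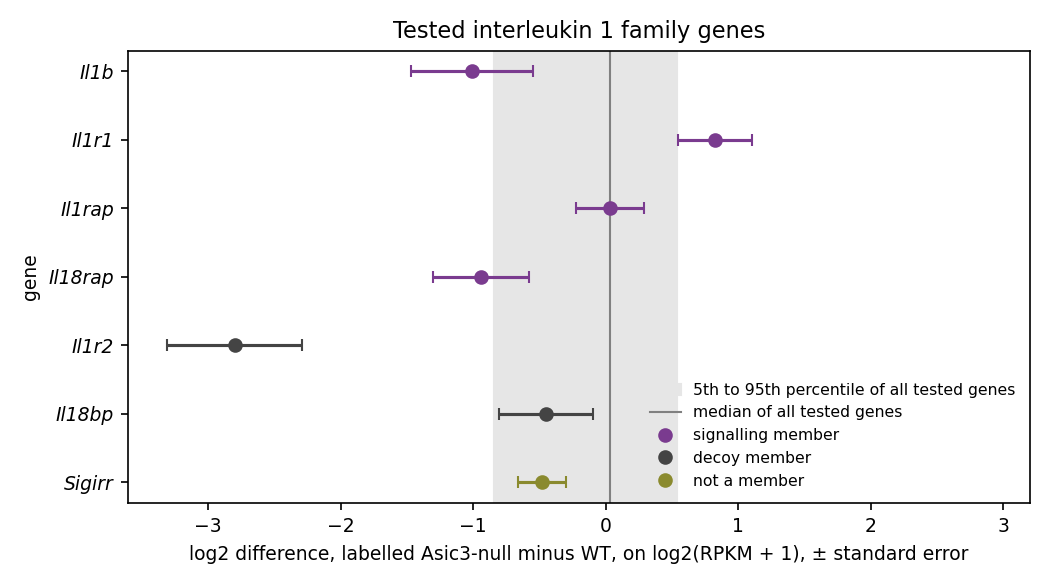
Log2 difference (labelled Asic3-null minus WT, on log2(RPKM + 1)) with its standard error for the 6 members that passed the filter and for Sigirr, which is not a member. The grey band is the 5th to 95th percentile of all tested genes, -0.84 to 0.54; Il1r2 at -2.80, Il1b at -1.01 and Il18rap at -0.94 lie to its left, and Il1r1 at 0.82 lies to its right.

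The signalling and decoy receptors were then set against each other within each library, where scaling between libraries has no effect. The ratio of Il1r2 to Il1r1 RPKM was 1.64, 0.978 and 0.187 in the null-labelled libraries and 21.6, 9.10 and 15.9 in the WT-labelled ones. The decoy exceeded the signalling receptor several-fold in every WT library, while in the null-labelled libraries it was above, level with and below it. On the log2 scale the ratio was -0.58 ± 1.63 against 3.87 ± 0.63 (SD, n = 3 each), a difference of -4.45 that lay between -5.09 and -3.53 under the alternatives. Expressed as a share, Il1r2 made up 62.1, 49.4 and 15.8% of the RPKM of both receptors in the null-labelled libraries and 95.6, 90.1 and 94.1% in the WT-labelled ones.

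**Figure D3:**
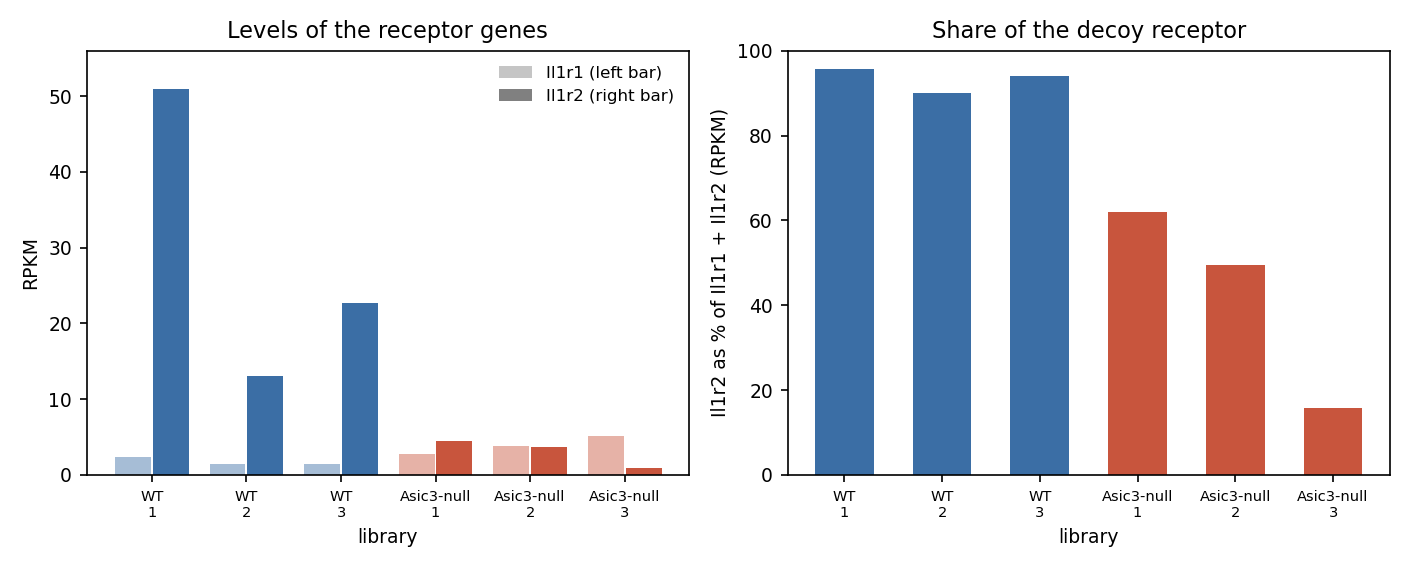
Left, RPKM of Il1r1 (pale bars) and Il1r2 (full bars) in each of the 6 libraries; right, Il1r2 as a percent of the RPKM of both. Blue bars are libraries labelled WT and red bars those labelled Asic3-null; the share was 90.1 to 95.6% in the former and 15.8 to 62.1% in the latter.

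Both receptors were also set against the accessory chain Il1rap. The ratio of Il1r1 to Il1rap was 1.38, 1.41 and 2.25 in the null-labelled libraries and 1.20, 0.472 and 0.774 in the WT-labelled ones, without overlap. The ratio of Il1r2 to Il1rap was 2.27, 1.38 and 0.421 against 26.0, 4.30 and 12.3, also without overlap. The log2 difference of Il1rap itself was 0.03, so both ratios mainly restate the differences of Il1r1 and Il1r2. The antagonist against its ligands could hardly be measured. The ratio of Il1rn to the sum of Il1a and Il1b was 0 in each null-labelled library. In the WT libraries it was 0.0462, 0.141 and 0.164, on the 7 reads above. The listed values of the ligands were above that of the antagonist in every library. In Asic3-null replicate 1 this rested on 1 read of Il1b, which is too few to order them. The ratio of Il18bp to Il18 has no value because Il18 was at 0.

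By level, the order of the members differed between the labels. In the WT libraries the mean RPKM fell from Il1r2 through Il18rap, Il1b, Il18bp, Il1rap and Il1r1 to Il1rn. The ranges of Il1r2 and Il18rap overlapped, those of Il18rap and Il1b did not, the neighbours from Il1b to Il1r1 overlapped, and Il1rn lay below Il1r1 without overlap. In the null-labelled libraries the order was Il18rap, Il1r1, Il1r2, Il1rap, Il18bp and Il1b, and each neighbouring pair overlapped. Over all libraries, Il1r2 stood at the 53.2 percentile of mean RPKM among tested genes, Il18rap at 41.4, and Il1b, Il1r1, Il18bp and Il1rap between 10.8 and 14.6.

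The rest of the family added little signal. Of 11 other family genes, all were listed and 6, Il36a, Il36b, Il36rn, Il1f10, Il1rapl1 and Il1rapl2, were at 0 in every library. Il33, the ligand of ST2, had 0.166, 0.484 and 0.327 RPKM in the null-labelled libraries and 0, 0 and 0.162 RPKM in the WT-labelled ones, 6 reads against 1. Il36g had 1 read against 2, Il1rl2, the IL-36 receptor, 10 against 9, and Il18r1 0 against 1. Sigirr, an orphan receptor of the family known to restrain signalling through IL-1R1, was the one that could be tested. It had 23.9, 18.4 and 20.1 RPKM in the null-labelled libraries and 35.8, 24.8 and 28.0 RPKM in the WT-labelled ones. The groups did not overlap, but the log2 difference of -0.48 (standard error 0.18) did not pass the threshold (adjusted p = 0.235 from limma), nor did it in any of 15 alternatives (adjusted p between 0.198 and 0.478). Relative to Il1r1, Sigirr stood at 8.70, 4.79 and 3.96 in the null-labelled libraries and at 15.2, 17.3 and 19.6 in the WT-labelled ones. Il1r1 itself was higher in each null-labelled library than in each WT one, which lowers the ratio there. The ratio thus shows no more of Sigirr than its own values do.

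The genes around the family were taken from a list of 62 genes of ligand processing, signalling and response, all listed and 57 tested. Of these 57, 1 was called lower and none higher in the null-labelled libraries, and 13 had an unadjusted p under 0.05 from limma, 12 of them lower, where all 12037 tested genes held 1912 such genes, 1138 of them lower. The median log2 difference was -0.13, against 0.03 over all tested genes. The called gene was Elane, which encodes neutrophil elastase, a granule protease able to cleave interleukin 1 precursors. It had 631, 865 and 979 RPKM in the null-labelled libraries and 1203, 1621 and 1711 RPKM in the WT-labelled ones (log2 difference -0.88, standard error 0.19, adjusted p = 0.0435 from limma). This call was lost in 9 of 15 alternatives, and with 1 library left out it held only without WT replicate 1.

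The parts of the list differed in their spread. The 14 genes of processing and release had a median log2 difference of -0.41 and ranged from -1.06 to 0.43, with 8 at an unadjusted p under 0.05, 7 of them lower. Casp1, the protease that matures IL-1 beta and IL-18, had a log2 difference of -0.22 (adjusted p = 0.620 from limma). The 28 tested signalling genes lay close to 0, with a median of 0.02 and a range from -0.48 to 0.29, and 1 of them had an unadjusted p under 0.05. Among them were the adaptor Myd88 at -0.48 (adjusted p = 0.284 from limma), the kinases Irak1 at 0.11 (0.753) and Irak4 at -0.34 (0.401), the ubiquitin ligase Traf6 at 0.07 (0.850) and the transcription factor Nfkb1 at -0.05 (0.901), none of which passed the threshold. The 15 tested response genes had a median of -0.36 and ranged from -1.55 to 0.50. They held 4 genes at an unadjusted p under 0.05, all lower, with none called. Cxcl1 and Il6, which interleukin 1 is known to induce, were at 0 in every library.

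**Figure D4:**
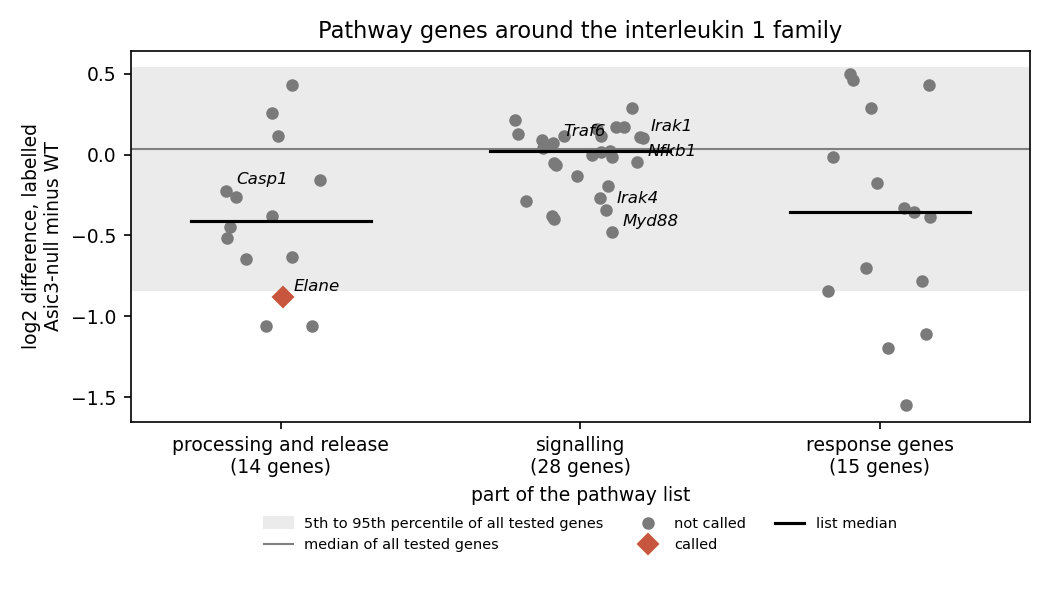
Log2 difference (labelled Asic3-null minus WT, on log2(RPKM + 1)) of each tested gene of the pathway list, by its part in processing and release (14 genes), signalling (28) or response (15). Black bars are list medians (-0.41, 0.02 and -0.36), the grey band is the 5th to 95th percentile of all tested genes and the diamond is Elane, the one called gene; the signalling genes sit closest to 0.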

How the data were processed

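LICs were sequenced from 3 libraries labelled Asic3-null and 3 labelled WT, grouped by the sample labels. The submitters' processing notes name CASAVA 1.8.2, TopHat2 2.0.12 and GRCm38, and the library kit does not mark strand. The authors deposited 1 table of RPKM per gene and library. The counting tool is not given in the sources used here. Reads were inferred from the RPKM values, and all 16825 genes above 0 gave whole reads within 0.0001. RefSeq for GRCm38.p6 supplied 25275 symbols and GENCODE 18, and 1886 genes had none.

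The limma package 3.58.1 (R 4.3.3) was fitted to log2(RPKM + 1) of the 12037 genes whose RPKM averaged 1 or more. The fit used genotype label alone and an intensity trend, and two-sided p-values were adjusted by Benjamini-Hochberg with a threshold of 0.05. Other steps used Python 3.11.15, numpy 2.4.6, pandas 2.3.3 and scipy 1.17.1, and the fit was tested on simulated data. The members, gene lists and tests were chosen with earlier results of these data known. Named were all members, the other family genes, called pathway genes with Myd88, Irak1, Irak4, Traf6, Casp1 and Nfkb1, and Asic3, Itgam and Kit as checks. The marker lists of some other cells are not reported here. Genes of the pathway list at 0, sex-linked genes and genes overlapping a named gene were named after their values were seen. Alternatives were scaling by median ratios or quantiles, a pseudocount of 0.1, no filter or one at an RPKM of 5, no trend, unmoderated fits of untransformed RPKM, a block for replicate number, limma-voom on inferred reads, and leaving out each library.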

Additional observations from a re-analysis of the deposited data

How the results depend on the processing

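With 1947168 to 2381861 reads per library, counting error limits every member, and Il1a, Il1rn, Il1rl1 and Il18 allow no estimate of a fold beyond a bound. The log2 differences of Il1b, Il1r1, Il1r2, Il18rap and Il18bp kept their direction under every alternative run, while Il1rap changed sign in 3 of 14. Il1r1 moved by more than 1 SD with limma-voom, to 1.14.

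The number of genes called, 403 of 12037, was 4 on untransformed RPKM without moderation, where 1694 had an unadjusted p under 0.05, and 203 (without WT replicate 1) to 293 (without WT replicate 3) with a library left out. The number of pathway genes called, 1, was 0 with no filter, with quantile normalization, with no trend and on untransformed RPKM (11, 13, 11 and 7 at an unadjusted p under 0.05), and 3 with limma-voom, which called Elane, Capn2 and Socs3, the last 2 of these named after their values were seen. It was 0 to 2 with a library left out, 0 without any 1 of the libraries labelled Asic3-null or without WT replicate 3 and 2 without WT replicate 2. The log2 difference of Asic3 was 1.81 with no filter (adjusted p = 0.0623 from limma) and 1.81 on untransformed RPKM (adjusted p = 0.283), below the call in both, and 1.54 to 2.07 with a library left out, where it was no longer called if Asic3-null replicate 1 or 3, or WT replicate 1 or 3, was the one left out. The causes were not tested. The difference in the ratio of Il1rn to Il1a plus Il1b, -0.117, was -0.035 with a pseudocount of 0.1 and turned to 0.147 with a pseudocount of 1, which is above every Il1rn level, and it was -0.153 to -0.094 with a library left out. No alternative could be computed for Il18bp against Il18, and the filter at a mean RPKM of 5 left out Asic3 and every member but Il1r2 and Il18rap.

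With the replicate number as a block, 246 genes were called and the log2 difference of Asic3 was 1.81 (adjusted p = 0.0598 from limma), no longer called. The block did not change the call of Elane. Same-numbered libraries deviated from their group means with correlations of 0.059, -0.059 and -0.123 across genes, and not every library correlated best with its own number. Deviations from a mean of 3 libraries depend on each other, so these correlations cannot show whether same-numbered samples share more than a number.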
